A study of Rattus norvegicus with 8 samples.

Results

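The genes described are 10 members of the epidermal growth factor (EGF) system: the ligand genes Egf, Tgfa, Hbegf, Areg, Ereg, Btc and Nrg1 and the receptor genes Egfr, Erbb2 and Erbb3. They were found by gene name and RefSeq accession among 41012 probes for rat transcripts, where 12 probes stood for them, 2 each for Nrg1 and Egfr and 1 for each other gene. They are a known gene family that was selected on log2 differences between the groups seen earlier on these arrays, so their differences between groups are descriptions and the p-values beside them carry no independent weight. Of the 10 genes, 9 were well above background on all 8 arrays and were among the 24462 genes tested. Ereg was not well above background on any array and was not tested.

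RNA came from whole kidney allografts 24 h after transplantation. Donors were Dark Agouti rats and recipients Lewis rats, male inbred animals of 120 to 250 g that differ at the major histocompatibility complex. All recipients had lost both of their own kidneys, and all grafts had been cooled in University of Wisconsin solution and kept for 25 min at 4 °C. Each of the 4 groups held 2 arrays, which the labels number as replicates.

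The anti-IL6R group received high-difference grafts and a single intravenous dose of 500 µg of a neutralizing antibody to the interleukin-6 receptor. The prednisolone group received high-difference grafts and a single intravenous dose of 15 mg/kg of this glucocorticoid. The high-difference group received grafts from donors that weighed 20 to 50% less than the recipient and no drug. The low-difference group received grafts from donors that weighed 0 to 20% less and no drug. No ungrafted kidney was analysed here, so each group is set against another graft group.

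EGF ligands are made as membrane-anchored precursors that metalloproteases such as ADAM17 and ADAM10 cut free. Most of them bind the EGF receptor, a tyrosine kinase that pairs with itself or with ERBB2, which has no known ligand, and signals through the RAS-ERK and PI3K-AKT routes. Neuregulin 1 binds ERBB3 and ERBB4 instead, and ERBB3 has little kinase activity and signals through its partner. In the kidney, EGF itself is made mainly by the thick ascending limb and distal convoluted tubule, while HB-EGF, amphiregulin and TGF-alpha are known as ligands of injured epithelium.

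The stretch of 250 bases before the annotated start was read for the members listed in the RefSeq promoter table of the GRCr8 assembly, which held 7 of the 10. The 4 below belong to the ligand with the widest range over the arrays (Egf) and to the 3 other EGF receptor ligands whose highest level was on a high-difference array. Capitals mark matches on either strand to a TATA box (TATAAA), a cAMP response element (TGACGTCA), an AP-1 element (TGANTCA), an antioxidant response element core (TGACNNNGC), a STAT element (TTCNNNGAA), a GC box (GGGCGG) or a CArG box. The windows are chr2:220976298-220976547 on the minus strand for Egf, chr14:17265642-17265891 on the minus strand for Areg, chr18:28390221-28390470 on the minus strand for Hbegf and chr4:120175469-120175718 on the plus strand for Tgfa.
Egf: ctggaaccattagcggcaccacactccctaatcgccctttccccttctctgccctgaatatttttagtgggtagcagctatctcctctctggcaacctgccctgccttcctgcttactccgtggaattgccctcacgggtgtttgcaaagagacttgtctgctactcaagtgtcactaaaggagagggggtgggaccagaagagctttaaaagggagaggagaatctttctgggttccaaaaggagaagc
Areg: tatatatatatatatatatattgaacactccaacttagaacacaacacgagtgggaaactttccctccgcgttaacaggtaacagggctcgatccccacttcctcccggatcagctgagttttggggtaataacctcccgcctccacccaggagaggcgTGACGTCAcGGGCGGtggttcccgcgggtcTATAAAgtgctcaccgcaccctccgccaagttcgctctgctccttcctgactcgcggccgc
Hbegf: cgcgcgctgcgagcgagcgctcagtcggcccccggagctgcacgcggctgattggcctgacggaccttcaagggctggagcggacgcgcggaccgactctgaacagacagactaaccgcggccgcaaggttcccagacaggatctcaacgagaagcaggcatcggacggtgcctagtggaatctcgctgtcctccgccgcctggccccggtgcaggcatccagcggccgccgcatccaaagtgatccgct
Tgfa: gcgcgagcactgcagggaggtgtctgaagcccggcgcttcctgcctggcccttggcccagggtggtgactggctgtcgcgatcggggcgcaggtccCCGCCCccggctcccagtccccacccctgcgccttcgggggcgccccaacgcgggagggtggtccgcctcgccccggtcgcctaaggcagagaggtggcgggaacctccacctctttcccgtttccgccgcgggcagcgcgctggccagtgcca

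The Areg window held a TATA box 61 to 56 bases before the start, a cAMP response element 91 to 84 bases before it and a GC box 82 to 77 bases before it, all on the gene's strand and without overlap. Of the 33469 promoter windows of the same length, 12.9% held the TATA box letters, 1.59% the cAMP response element and 30.5% the GC box. The Tgfa window held a GC box 154 to 149 bases before the start, on the opposite strand. Single GC boxes were also found for Btc, 127 to 122 bases before the start, for Egfr, 51 to 46 bases before it, and for Erbb2, 98 to 93 bases before it. None of these letters was found in the Egf and Hbegf windows. The AP-1 letters stood in 6.34% of all windows, the antioxidant core in 10.1%, the STAT letters in 7.67% and the CArG letters in 1.497%, and none of these was found for a member. Btc, Areg and Ereg lie next to each other on rat chromosome 14, followed by Epgn, the gene of a further EGF receptor ligand, in the same annotation.

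Levels are given as log2 of the processed signal minus the array's 75th percentile, so that 0 is a signal brighter than 75% of the array's probes. They compare a gene between arrays and not one gene with another. Spots well above background made up 71.5% and 74.0% of gene spots on the anti-IL6R arrays, 70.2% and 64.5% on the prednisolone arrays, 66.5% and 65.3% on the high-difference arrays and 71.7% and 72.1% on the low-difference arrays. The anti-IL6R and prednisolone arrays were on one slide, and the high- and low-difference arrays on another. In the comparisons of a treatment with untreated high-difference grafts, slide and treatment therefore cannot be told apart. As a check of the tissue, all 10 proximal tubule markers and 8 of 9 tested thick ascending limb and distal tubule markers were well above background on all arrays.

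**Figure D1:**
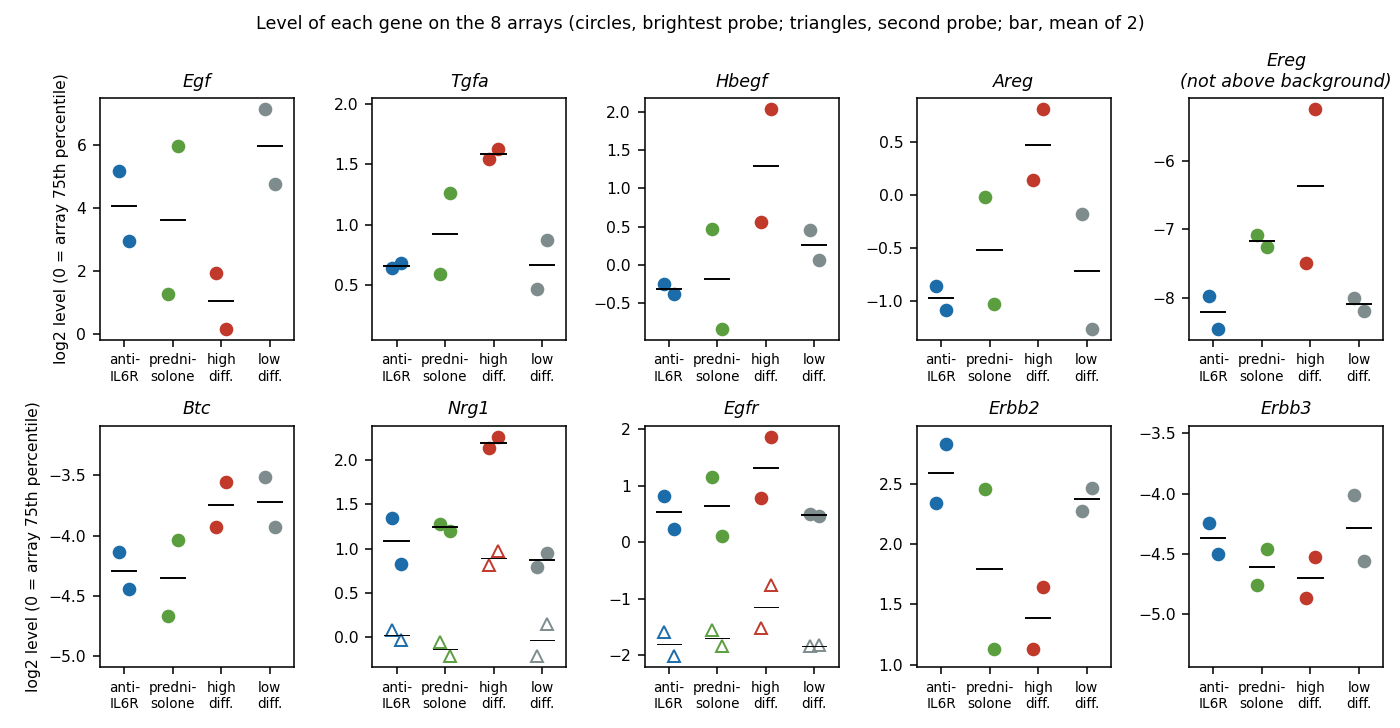
Level of each of the 10 genes on the 8 arrays, as log2 of the processed signal relative to the array's 75th percentile. Circles are the brightest probe of a gene, triangles the second probe of Nrg1 and Egfr, and bars the mean of 2 arrays. Each panel has its own vertical scale. Egf spans 6.97 log2 units and Nrg1 stands highest on both high-difference arrays.

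Egf, the ligand of the distal nephron, had the widest range of the 10 genes. Its level was 5.16 and 2.95 on the anti-IL6R arrays, 1.27 and 5.95 on the prednisolone arrays, 1.93 and 0.15 on the high-difference arrays and 7.12 and 4.77 on the low-difference arrays. The 2 low-difference arrays lay above both high-difference arrays, as did the 2 anti-IL6R arrays, while 1 prednisolone array lay inside the high-difference range and the other among the highest of all. Between the lowest and highest array the signal differed by 6.97 log2 units, and 0.155% of all genes had a wider range, against a median range of 0.95 over all genes. The SD over the 10 spots of this probe on an array was between 0.03 and 0.19, far less than the spread over arrays.

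The group means of Egf ran in the order high-difference (1.04 ± 1.25), prednisolone (3.61 ± 3.31), anti-IL6R (4.06 ± 1.56) and low-difference (5.95 ± 1.67; SD, n = 2 each). Adjacent groups in this order overlapped for prednisolone and high-difference grafts, for anti-IL6R and prednisolone grafts, and for low-difference and anti-IL6R grafts. The fitted difference between high- and low-difference grafts was -4.90, with a 95% interval from -8.95 to -0.86. It was -3.73 without the first low-difference array and -6.08 without the second. For anti-IL6R against high-difference grafts it was 3.02, and 1.91 without the first anti-IL6R array. For prednisolone against high-difference grafts the value depended on the array: the difference was 2.57 with both, 4.91 without the first prednisolone array and 0.23 without the second.

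Other genes of the same tubule segments were set beside Egf. Umod, which encodes uromodulin of the thick ascending limb, had 8.79 and 8.18 on the anti-IL6R arrays, 7.64 and 8.68 on the prednisolone arrays, 8.26 and 7.74 on the high-difference arrays and 9.13 and 8.69 on the low-difference arrays. Slc12a3, which encodes the thiazide-sensitive cotransporter of the distal convoluted tubule, had 0.75 and -0.23 on the anti-IL6R arrays, -0.13 and 1.31 on the prednisolone arrays, -0.22 and -0.84 on the high-difference arrays and 1.73 and 0.69 on the low-difference arrays. As with Egf, the first low-difference array was highest for both genes and the second prednisolone array lay far above the first. The high-minus-low difference was -0.91 ± 0.42 (SE) for Umod and -1.74 ± 0.62 for Slc12a3, against -4.90 ± 1.68 for Egf.

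Of the 9 tested thick ascending limb and distal tubule markers, 0 had a difference above 0 and 9 below 0 between high- and low-difference grafts, with a median of -1.26, and 0 passed the adjusted threshold, as for all genes. Over all genes, 56.0% had a difference above 0 in this comparison, with a median of 0.07. Markers of other cells also lay below 0: 8 of 9 collecting duct markers (median -0.77), 8 of 10 proximal tubule markers (median -0.99), 11 of 11 T and NK cell markers (median -1.49), 7 of 8 endothelial markers (median -0.78), 7 of 7 fibroblast and smooth muscle markers (median -1.03) and 4 of 4 red blood cell markers (median -0.75). The collecting duct and red blood cell lists share a gene, which is counted in both. The proximal tubule shift came mostly from the second high-difference array. The median of these markers, each relative to its own mean over the arrays, was 0.21 and -1.60 on the high-difference arrays. On the low-difference arrays it was 0.53 and 0.26. Of the 11 T and NK cell markers, only 3 were well above background on all arrays. For endothelial markers this held for 7 of 8, for fibroblast and smooth muscle markers 6 of 7 and for collecting duct markers 8 of 9. A gene dim on the high-difference arrays could be tested only through another group, so the sign of its difference was largely set in advance. This applied to 1 of the 9 thick ascending limb and distal tubule markers, which only the low-difference group let into the test. That marker is counted in the 9 below 0 and in their median, and its sign carries no weight. The other 8 were well above background on all arrays and also lay below 0. The same limit holds for dim genes of the other lists, the T and NK cell list most of all. Genes let in that way were not counted for those lists. Their counts and medians are therefore descriptions, and no decrease is read from them. Of the macrophage and dendritic cell markers, 8 of 9 lay below 0 as well, and 7 of 9 were well above background on all arrays. Other lists were split or ran the other way. Below 0 lay 2 of 4 neutrophil markers (median -0.10) and 2 of 4 urothelium and mesothelium markers (median -0.14). Only 2 of these 4 neutrophil markers and 1 of these 4 urothelium and mesothelium markers were well above background on all arrays. Also below 0 were 1 of 4 mast cell and basophil markers and 1 of 10 tubular injury markers. The summed level of the 9 thick ascending limb and distal tubule markers, in multiples of the 75th percentile, ranged from 379 to 639 over the anti-IL6R arrays, from 237 to 681 over the prednisolone arrays, from 266 to 387 over the high-difference arrays and from 568 to 909 over the low-difference arrays. Umod alone supplied 60.4 to 84.1% of that sum on an array, so it mostly follows that gene. The median of the 9 markers, each relative to its own mean over the arrays, ranged from -0.28 to 0.42 over the anti-IL6R arrays, from -1.05 to 0.93 over the prednisolone arrays, from -0.90 to -0.46 over the high-difference arrays and from 0.22 to 0.97 over the low-difference arrays. Pvalb was the tenth marker and was not well above background on any array. In bulk tissue, fewer cells of a type and less RNA per cell cannot be told apart, and the part of any of these markers in the Egf values was not tested.

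**Figure D2:**
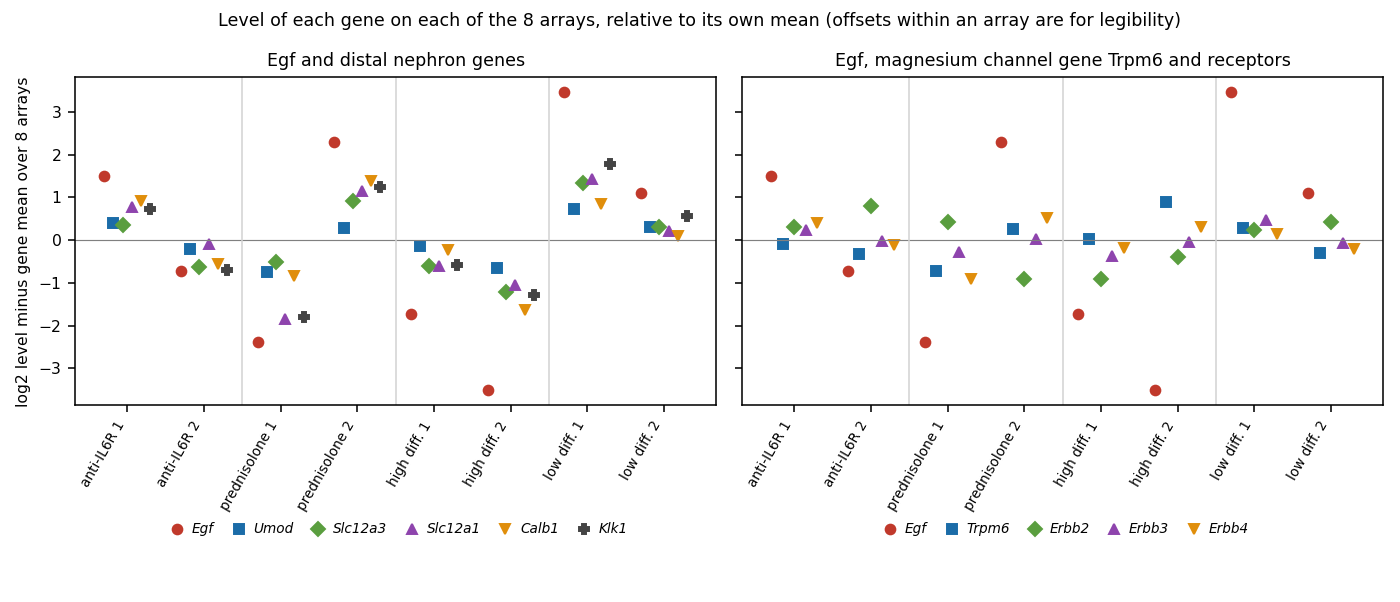
Level of each gene on each of the 8 arrays minus its own mean over the arrays, in log2 units. The left panel shows Egf with 5 of the 9 tested thick ascending limb and distal tubule markers. The right panel shows Egf with the magnesium channel gene Trpm6 and the receptor genes Erbb2, Erbb3 and Erbb4. Egf and the 5 plotted segment genes lie below their means on both high-difference arrays, the second anti-IL6R array and the first prednisolone array. Among the tested markers left out of the plot, Cldn16 lies above its mean on the second high-difference array. Kcnj1 lies above its mean on the second anti-IL6R array.

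EGF is also known to stimulate magnesium uptake through the channel TRPM6 in the distal convoluted tubule. Trpm6 had -0.60 and -0.81 on the anti-IL6R arrays, -1.22 and -0.24 on the prednisolone arrays, -0.48 and 0.39 on the high-difference arrays and -0.21 and -0.80 on the low-difference arrays. Unlike Egf, it was highest on a high-difference array, and the high- and low-difference groups overlapped, with a difference of 0.46 ± 0.43 (SE), or 0.033 without the second high-difference array. Of the 6 tested genes of magnesium handling, 2 had a difference above 0 and 4 below 0 in this comparison, with a median of -0.23, and 0 passed the adjusted threshold.

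Among the ligands of the EGF receptor other than Egf, Tgfa, Hbegf and Areg each had their highest group mean in untreated high-difference grafts. Tgfa, which encodes TGF-alpha, had 0.64 and 0.68 on the anti-IL6R arrays, 0.59 and 1.26 on the prednisolone arrays, 1.54 and 1.63 on the high-difference arrays and 0.46 and 0.87 on the low-difference arrays. Both high-difference arrays lay above all 6 others, and the other 3 groups overlapped. The high-difference level was 0.92 ± 0.27 (SE) above the low-difference level. The anti-IL6R level differed from the high-difference level by -0.92 ± 0.27 and the prednisolone level by -0.66 ± 0.27, which was -0.32 without the first prednisolone array and -0.999 without the second.

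Hbegf, which encodes heparin-binding EGF-like growth factor, had -0.25 and -0.38 on the anti-IL6R arrays, 0.47 and -0.84 on the prednisolone arrays, 0.56 and 2.03 on the high-difference arrays and 0.46 and 0.06 on the low-difference arrays. The second high-difference array stood far above all others, and the first lay close to the highest prednisolone and low-difference arrays. The high-minus-low difference was 1.04 ± 0.59 with all arrays and 0.30 without the second high-difference array, against 1.77 without the first. Against high-difference grafts the anti-IL6R difference was -1.61 ± 0.59, and -0.87 without the second high-difference array. The prednisolone difference was -1.48 ± 0.59, and -0.74 without that array.

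Areg, which encodes amphiregulin, had -0.85 and -1.08 on the anti-IL6R arrays, -0.02 and -1.02 on the prednisolone arrays, 0.14 and 0.81 on the high-difference arrays and -0.18 and -1.26 on the low-difference arrays. Both high-difference arrays were above the other 6, with the first prednisolone array close below. High-difference grafts exceeded low-difference grafts by 1.20 ± 0.49, and by 0.66 without the second low-difference array. The anti-IL6R difference from high-difference grafts was -1.45 ± 0.49 and the prednisolone difference -0.998 ± 0.49, which was -0.49 without the second prednisolone array.

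Btc and Ereg are neighbours of Areg on chromosome 14. Btc, which encodes betacellulin, had -4.14 and -4.44 on the anti-IL6R arrays, -4.66 and -4.03 on the prednisolone arrays, -3.93 and -3.56 on the high-difference arrays and -3.52 and -3.93 on the low-difference arrays. The high- and low-difference arrays covered nearly the same range, with a difference of -0.02 and a 95% interval from -0.74 to 0.70, while both treated groups lay below both high-difference arrays. Its differences from high-difference grafts were -0.55 ± 0.30 for anti-IL6R and -0.61 ± 0.30 for prednisolone. The first was -0.36 without the second high-difference array. The prednisolone difference was -0.29 without the first prednisolone array and -0.92 without the second. Ereg, which encodes epiregulin, read -7.97 and -8.45 on the anti-IL6R arrays, -7.09 and -7.26 on the prednisolone arrays, -7.49 and -5.25 on the high-difference arrays and -7.99 and -8.19 on the low-difference arrays. None of these readings was well above background, so no fold is given. Epgn was likewise not well above background on any array.

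Markers of other cells and of injured tubules were set beside these ligands. Of the 10 tested tubular injury markers, 9 had a difference above 0 between high- and low-difference grafts, against 56.0% of all genes, with a median of 0.86, and 0 passed the adjusted threshold. Their summed level ranged from 617 to 755 over the anti-IL6R arrays, from 388 to 774 over the prednisolone arrays, from 949 to 1696 over the high-difference arrays and from 684 to 959 over the low-difference arrays, with 31.2 to 66.3% of it from Spp1. Havcr1, the eleventh, lacked a usable spot on the second high-difference array and was left out. The summed level of the 9 tested macrophage and dendritic cell markers ran the other way, from 49.98 to 70.8 over the anti-IL6R arrays, from 21.3 to 79.5 over the prednisolone arrays, from 11.0 to 14.2 over the high-difference arrays and from 36.6 to 53.3 over the low-difference arrays, with 8 of 9 below 0 in high minus low and 44.5 to 61.8% of the sum from Lyz2. Of the 7 mast cell and basophil markers, 4 were tested, with 3 differences above 0 and 1 below 0 in high minus low and a median of 0.22, and Cpa3, Fcer1a and Ms4a2 were not well above background on any array. Their summed level ranged from 3.30 to 3.66 over the anti-IL6R arrays, from 3.53 to 3.83 over the prednisolone arrays, from 4.10 to 4.42 over the high-difference arrays and from 3.43 to 4.05 over the low-difference arrays. Tpsab1, which encodes a mast cell tryptase, supplied 61.6 to 72.2% of that sum. Well above background on all arrays were 9 of the 10 tested tubular injury markers and 7 of the 9 macrophage and dendritic cell markers. This held for 3 of the 4 tested mast cell and basophil markers. A marker dim on some arrays was tested only through a group in which it was brighter. Its sign may thus have been set in advance and carries no weight, though it stays in these counts and medians. The part of the injury, macrophage and mast cell markers in the ligand values was not tested.

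**Figure D3:**
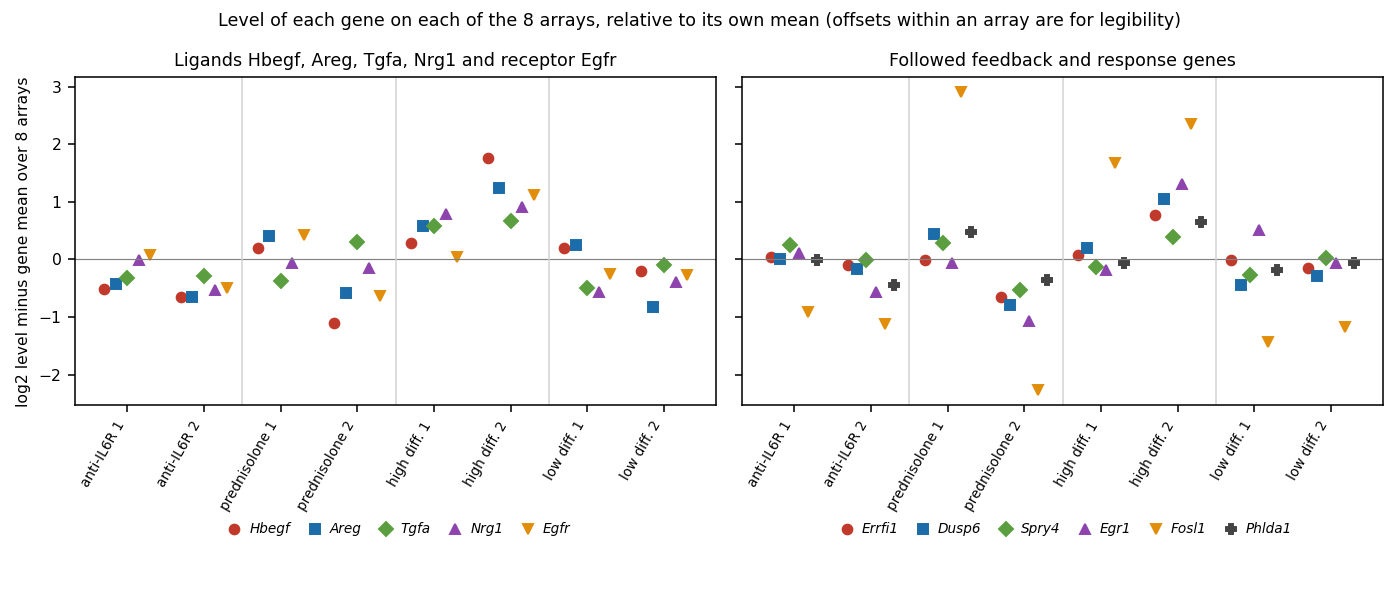
Level of each gene on each of the 8 arrays minus its own mean over the arrays, in log2 units. The left panel shows the ligand genes Hbegf, Areg, Tgfa and Nrg1 with the receptor gene Egfr, and the right panel shows followed feedback and response genes. Hbegf, Areg and Egfr are highest on the second high-difference array, and Fosl1 is highest on the first prednisolone array.

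Nrg1, the neuregulin gene whose products bind ERBB3 and ERBB4, had 1.34 and 0.82 on the anti-IL6R arrays, 1.28 and 1.20 on the prednisolone arrays, 2.14 and 2.26 on the high-difference arrays and 0.79 and 0.95 on the low-difference arrays. Both high-difference arrays stood apart above the other 6, which lay between 0.79 and 1.34. High-difference grafts exceeded low-difference grafts by 1.33 ± 0.22 (SE), or 2.51-fold, with a 95% interval from 0.79 to 1.87. A second Nrg1 probe, printed in 10 spots, had 0.08 and -0.04 on the anti-IL6R arrays, -0.06 and -0.21 on the prednisolone arrays, 0.82 and 0.97 on the high-difference arrays and -0.22 and 0.15 on the low-difference arrays. It gave the same separation, with a high-minus-low difference of 0.93 ± 0.20. The anti-IL6R difference from high-difference grafts was -1.12 ± 0.22 on the first probe and -0.87 ± 0.20 on the second. The prednisolone difference was -0.96 ± 0.22 on the first and -1.03 ± 0.20 on the second.

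Among the receptors, Egfr had 0.82 and 0.24 on the anti-IL6R arrays, 1.16 and 0.11 on the prednisolone arrays, 0.78 and 1.86 on the high-difference arrays and 0.49 and 0.47 on the low-difference arrays. As with Hbegf, the second high-difference array was the highest, and the treated groups overlapped the high-difference group. The high-minus-low difference was 0.83 ± 0.48 and 0.29 without the second high-difference array. The second Egfr probe, in 10 spots, had -1.59 and -2.02 on the anti-IL6R arrays, -1.55 and -1.83 on the prednisolone arrays, -1.52 and -0.76 on the high-difference arrays and -1.84 and -1.81 on the low-difference arrays. It too was highest on the second high-difference array, with both treated groups narrowly below the first, and its high-minus-low difference was 0.68 ± 0.30, or 0.302 without that array.

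Erbb2, the gene of the receptor without a ligand, had 2.34 and 2.83 on the anti-IL6R arrays, 2.46 and 1.13 on the prednisolone arrays, 1.13 and 1.65 on the high-difference arrays and 2.27 and 2.47 on the low-difference arrays. Opposite to Egfr, it was lower on both high-difference arrays than on all low-difference and anti-IL6R arrays, and the prednisolone arrays split. In high minus low it differed by -0.98 ± 0.46 and the anti-IL6R difference from high-difference grafts 1.20 ± 0.46. For prednisolone the difference was 0.41 ± 0.46, but -0.26 without the first prednisolone array and 1.07 without the second. The 3 arrays with the lowest Erbb2 level were also the 3 with the lowest share of spots well above background, and the part of that share in the values was not tested. The SD over the spots of this probe reached 0.49 on an array, wider than for the other 3 members with 10 spots.

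Erbb3, the partner receptor for neuregulins, had -4.24 and -4.50 on the anti-IL6R arrays, -4.76 and -4.46 on the prednisolone arrays, -4.87 and -4.52 on the high-difference arrays and -4.01 and -4.56 on the low-difference arrays. All groups lay within 0.85 log2 units, less than the median range of all genes. The high-minus-low difference was -0.41 ± 0.27 with overlap of the groups, and it was -0.13 without the first low-difference array, -0.68 without the second and -0.24 without the first high-difference array. Erbb4, a further neuregulin receptor, had -4.09 and -4.62 on the anti-IL6R arrays, -5.41 and -3.97 on the prednisolone arrays, -4.67 and -4.20 on the high-difference arrays and -4.34 and -4.70 on the low-difference arrays. Its 4 groups overlapped, with a high-minus-low difference of 0.08 ± 0.49, or -0.15 without the second high-difference array.

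The differences of all 9 tested genes were read against all 24462 genes in the limma fit of the 8 arrays. Between high- and low-difference grafts, 0 of 9 passed an adjusted p of 0.05, as did 0% of all genes, with adjusted p between 0.26 and 0.98. At an unadjusted p under 0.05 there were 4 of 9, against 14.7% of all genes. The arrays of the 2 groups did not overlap for 7 of 9, against 56.5% of all genes. Of these, 5 were higher, against 33.5% of all genes, and 2 lower, against 23%. The median difference of the 9 was 0.83, against 0.07 over all genes. Since these values had a part in the choice of the genes, nothing is read from their shares.

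Between anti-IL6R and high-difference grafts, 0 of 9 passed, as did 0% of all genes, with adjusted p between 0.19 and 0.53. There were 5 of 9 at an unadjusted p under 0.05, against 17.7% of all genes, and 8 of 9 without overlap, against 59.8%. Of these, 3 were higher, against 23.5% of all genes, and 5 lower, against 36.3%. The median difference was -0.79, against -0.09 over all genes. Between prednisolone and high-difference grafts, 0 of 9 passed, as did 0% of all genes, with adjusted p between 0.31 and 0.91. There were 3 of 9 at an unadjusted p under 0.05, against 11.8% of all genes, and 5 of 9 without overlap, against 38.9%, all 5 of them lower, against 25%. The median was -0.66, against -0.08 over all genes. These 3 comparisons share the high-difference arrays, so a gene that was high on those arrays is placed on opposite sides by construction.

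Between anti-IL6R and prednisolone grafts, 0 of 9 passed, as did 0% of all genes, and 0 of 9 had an unadjusted p under 0.05, against 3.4% of all genes. The arrays overlapped for all 9, where 26.2% of all genes did not overlap. Differences of the 9 ran from -0.45 for Areg to 0.79 for Erbb2, with a median of -0.10 against -0.01 over all genes. The 95% interval for Egf ran from -3.60 to 4.49, for Tgfa from -0.92 to 0.39 and for Nrg1 from -0.70 to 0.39. With 2 arrays a group, differences anywhere within these bounds remain compatible with the data.

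**Figure D4:**
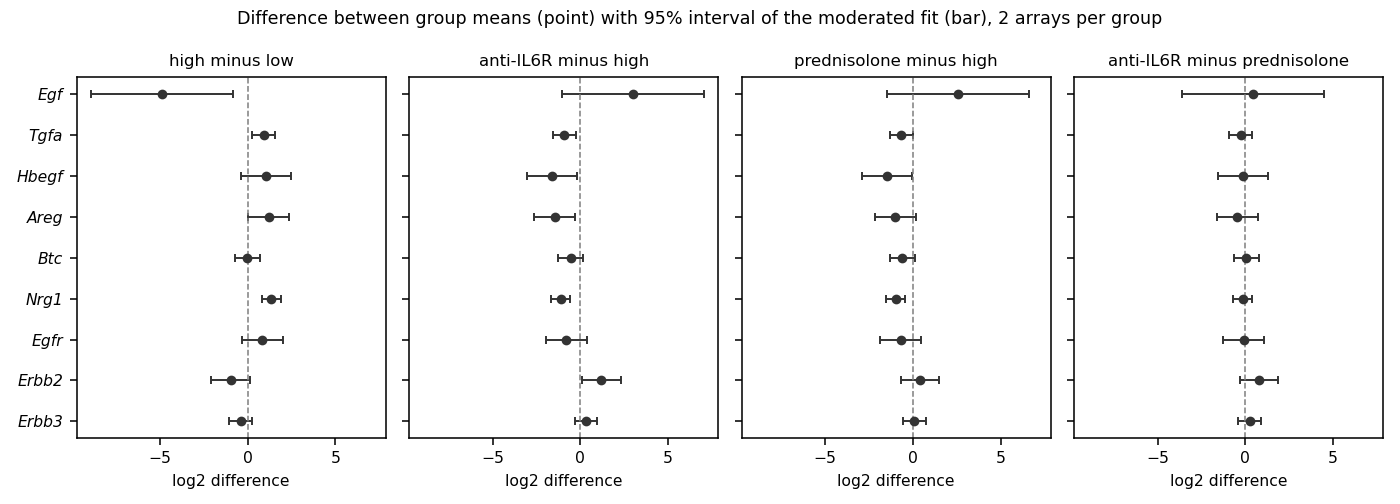
Difference between group means for the 9 tested genes, in log2 units, in each of the 4 comparisons. Points are the fitted differences and bars their 95% intervals. Egf has the widest intervals, and every interval in anti-IL6R minus prednisolone spans 0.

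The wider pathway was described by lists of its parts, whose counts above 0 in high minus low stand against 56.0% of all genes. Of the 7 tested genes of ligand shedding, 4 had a difference above 0 and 3 below 0 in high minus low, with a median of 0.09, and 0 passed. Adam17, the main shedding protease of TGF-alpha, amphiregulin and HB-EGF, had -0.55 and -0.48 on the anti-IL6R arrays, -0.66 and -1.03 on the prednisolone arrays, -1.40 and -0.66 on the high-difference arrays and -0.79 and -0.53 on the low-difference arrays. It was lowest on a high-difference array, and the high- and low-difference groups overlapped. Rhbdf2, whose product iRhom2 carries ADAM17 to the cell surface, had -2.46 and -2.65 on the anti-IL6R arrays, -2.14 and -3.38 on the prednisolone arrays, -2.91 and -1.76 on the high-difference arrays and -2.89 and -2.71 on the low-difference arrays. The high-difference arrays spanned all low-difference and anti-IL6R arrays, and the prednisolone arrays split widely.

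Of the 12 tested genes of ErbB feedback inhibition, out of 16 on the list, 9 had a difference above 0 and 3 below 0 in high minus low, with a median of 0.29, and 0 passed. Well above background on all arrays were 10 of the 12. Their median, each gene relative to its own mean over the arrays, was 0.004 and 0.32 on the high-difference arrays. On the low-difference arrays it was -0.05 and -0.06, so the shift came mostly from the second high-difference array. Errfi1, whose product MIG6 inhibits the EGF receptor kinase, had 5.42 and 5.28 on the anti-IL6R arrays, 5.36 and 4.71 on the prednisolone arrays, 5.45 and 6.15 on the high-difference arrays and 5.36 and 5.23 on the low-difference arrays. The first high-difference array was barely above the rest and the second well above. Dusp6, whose product removes phosphate from ERK, had 4.05 and 3.86 on the anti-IL6R arrays, 4.48 and 3.25 on the prednisolone arrays, 4.23 and 5.08 on the high-difference arrays and 3.59 and 3.75 on the low-difference arrays. The first prednisolone array lay within its high-difference range, and the high-minus-low difference was 0.99 ± 0.45, or 0.56 without the second high-difference array. Spry4, which encodes an inhibitor of RAS-ERK signalling, was not well above background on 1 high-difference and 1 prednisolone array, so no difference is given for it. Lrig1, which encodes a further negative regulator of ErbB receptors, lacked a usable spot on 1 array and was not tested.

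Of the 18 genes of adaptors and the MAPK and PI3K relay, all tested, 14 had a difference above 0 and 4 below 0 in high minus low, with a median of 0.25, and 0 passed. Of the 17 tested growth factor response targets, 14 lay above 0 and 3 below 0, with a median of 0.34, and 0 passed. In anti-IL6R minus high the median of these targets was -0.64, and -0.23 without the second high-difference array. In prednisolone minus high it was -0.53, but -0.016 without the second prednisolone array and 0.052 without the second high-difference array. The high-minus-low median of the targets was 0.054 without that high-difference array. Fosl1, which encodes the AP-1 protein FRA-1, had -3.33 and -3.55 on the anti-IL6R arrays, 0.49 and -4.69 on the prednisolone arrays, -0.74 and -0.06 on the high-difference arrays and -3.85 and -3.59 on the low-difference arrays. The 2 high-difference arrays and the first prednisolone array formed the high side of a wide gap, and the other 5 arrays the low side. Egr1, an immediate early transcription factor gene, had a high-minus-low difference of 0.34 ± 0.59, or -0.41 without the second high-difference array. Phlda1, a response gene of ERK signalling, had one of 0.41 ± 0.37, or 0.054 without that array, and the groups overlapped for both genes.

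Genes with the most similar course over the arrays were sought among 11772 genes with a symbol, by Pearson's r of log2 levels over the 8 arrays. All genes of an array share its labelling, hybridisation and scaling. Nearest to Egf were Tmem205 (r = 0.995), Thnsl2 (0.989), Lrrc51 (0.987), Plcd4 (0.986) and Acat1 (0.986). Plcd4, the gene of a phospholipase C, had -1.62 and -2.37 on the anti-IL6R arrays, -3.27 and -0.97 on the prednisolone arrays, -2.48 and -3.71 on the high-difference arrays and -0.31 and -1.41 on the low-difference arrays, so it ordered the arrays as Egf did, apart from a swap of the first anti-IL6R and second low-difference arrays, in a narrower range. Nearest to Hbegf were Sdc4 (0.986), Csnk1d (0.982), Ddx24 (0.978), Setdb1 (0.976) and Upf3a (0.975). Sdc4, which encodes the heparan sulfate proteoglycan syndecan-4, had 5.29 and 5.37 on the anti-IL6R arrays, 5.69 and 5.11 on the prednisolone arrays, 5.88 and 6.57 on the high-difference arrays and 5.71 and 5.68 on the low-difference arrays. Like Hbegf it was highest on the second high-difference array and lowest on the second prednisolone array. With 11772 genes searched over 8 arrays these values rank genes and are no test.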

How the data were processed

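Total RNA of 8 grafts (1 µg each) was labelled with Cy3 and hybridised to 1-colour Agilent arrays, per the labels' protocols. Spot intensities in the deposited files had, per the file headers, been background-subtracted in Feature Extraction (version 9.5.1.1). The authors' value table holds the same intensities multiplied by a factor for each array. How that factor was chosen is not stated in the labels or headers.

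Spots of a probe were averaged as log2 of the deposited intensity, without control spots and outlier flags. Each array was then scaled by its 75th percentile. Testing required a signal well above background on every array of 1 group or more, which left 28686 of 41012 probes and 24462 genes, each taken from its brightest probe. Probe names were updated through RefSeq genes of GRCr8, with 10735 probes matched on accession, 5577 on symbol and 3730 on synonym, while 20970 stayed as in the files. A single limma 3.58.1 fit (R 4.3.3) of the 8 arrays had 4 residual and 2.37 prior degrees of freedom, and Benjamini-Hochberg adjustment ran over all genes. No exact permutation test was run, since its smallest two-sided p for 2 against 2 arrays is 0.333. The number of arrays limits the precision, and p-values measure only the spread between them. Alternatives covered background correction, normalization, scaling, filters, the authors' table, probe choice, the arrays fitted, a replicate block and each array left out.

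The 10 genes, the 18 pathway and marker lists, the named genes and the alternatives were chosen with earlier results of these data known. Named were the 10 members, 15 followed pathway genes and the 5 genes most correlated with Egf and with Hbegf. Further list genes are named in a plot or its caption, or where a marker was not tested. The rest are named where 1 gene carries most of a summed level or the largest part of it. Nrg3 and Nrg4 were not analysed here. The fit was tested on simulated data.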

Additional observations from a re-analysis of the deposited data

How the results depend on the processing

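The 9 tested genes in 4 comparisons gave 36 differences, each recomputed under 17 alternatives: 588 kept their direction and 24 reversed, and no member passed the adjusted threshold under any. The number of genes passing was 0 in each comparison. With quantile normalization it was 3 in high minus low, 7 in anti-IL6R minus high, 4 in prednisolone minus high and 2 in anti-IL6R minus prednisolone. With scaling to the array median it was 1 in high minus low and 1 in anti-IL6R minus high. Leaving out 1 array gave 0 to 108, 0 to 157, 0 to 556 and 0 to 402 genes in the same order of comparisons. The highest were without the first high-difference array (108) and otherwise without the first prednisolone array (157, 556 and 402). High minus low also gave 24 genes without the first prednisolone array and 14 without the second, while leaving out high-difference array 1 gave 137 in anti-IL6R minus high and 64 in prednisolone minus high, where leaving out prednisolone array 2 gave 126 and 32. Anti-IL6R minus prednisolone gave 63 without the second prednisolone array. The median difference of the members then ranged from 0.29 to 0.96 in high minus low, from -0.97 to -0.36 in anti-IL6R minus high and from -0.79 to -0.32 in prednisolone minus high. It was lowest in size without the second high-difference array in the first 2 (0.29 and -0.36) and without the first prednisolone array in the last (-0.32). The cause was not tested.

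The reversals were these. With normexp background correction, Btc in high minus low was 0.12, Erbb3 was -0.17 in anti-IL6R minus high and -0.17 in prednisolone minus high, and in anti-IL6R minus prednisolone Btc was -0.15 and Egfr 0.053. Btc in high minus low was 0.0090 with quantile normalization and 0.0093 with median scaling, and Btc in anti-IL6R minus prednisolone was -0.022 with the first of these and -0.015 with the other. Leaving out 1 array gave -0.23 to 0.19 for Btc in high minus low, and -0.26 to 1.07 for Erbb2 and -0.086 to 0.26 for Erbb3 in prednisolone minus high. In anti-IL6R minus prednisolone it gave -1.90 to 2.78 for Egf, -0.60 to 0.074 for Tgfa, -0.79 to 0.52 for Hbegf, -0.95 to 0.055 for Areg, -0.26 to 0.37 for Btc, -0.42 to 0.11 for Nrg1 and -0.63 to 0.42 for Egfr. Where a group kept 1 array, that array was assumed to vary like the other groups.

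Leaving out 1 array for the followed pathway genes, the second probes and the response targets was added after seeing the data. With normexp correction the median over all genes in anti-IL6R minus high was -0.22. Deviations of same-numbered replicates from their group means had correlations from -0.35 to 0.37 over 6 pairs of groups. With 2 arrays a group, these cannot tell whether such arrays share more than a number. With the replicate block, 0 genes passed in each comparison and no member changed direction.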
